A study of Gallus gallus with 24 samples.

Results

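The genes described here encode the protein subunits of the mitochondrial respiratory chain and the ATP synthase. They were chosen by symbol, as rows for NDUF, SDH, UQCR, COX4 to COX8 and ATP5 genes (nuclear) or as protein genes of the mitochondrial genome, with a mean of at least 1 CPM (the count of a gene after scaling each library to the same total). The rule found 87 genes of the 25466 in the count tables, 74 nuclear and 13 mitochondrial, and all 87 were among the 13000 genes tested. Complex I had 42 members, complex II 4, complex III 9, complex IV 12 and complex V 20.

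RNA came from DF1 cells, a chicken embryonic fibroblast line that immortalised spontaneously. Cells with a knockdown of IRF9 and mock cells, which the labels call wild type, were each sampled at 0 h and then after 30 min, 1 h and 6 h with poly(I:C), a synthetic mimic of viral double-stranded RNA. Each of the 8 groups had 3 libraries, made from poly(A)-selected RNA by a directional method. The labels name poly(I:C) for all groups, also at 0 h, and no untreated cells of the later times were analysed here, so the effects of poly(I:C) and of time itself cannot be told apart. How the knockdown was made, whether its cells were 1 clone, and how poly(I:C) was given are not stated in the labels. The growth temperature on the labels is low for chicken cells. Nothing says that replicates were separate cultures, so the spread behind the p-values may be technical.

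In the respiratory chain, complexes I and II pass electrons to ubiquinone, complex III hands them on to cytochrome c, and complex IV passes them to oxygen. Complexes I, III and IV pump protons across the inner membrane, and complex V makes ATP from the return flow. Complex II is encoded by nuclear genes alone. The other complexes join nuclear subunits with subunits that mitochondria transcribe from their own circular genome as long RNAs, later cut into single messages. In mammals, double-stranded RNA and interferon act mainly on nuclear genes through factors such as IRF9, while mitochondrial genes are read by a separate polymerase.

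Libraries held 12174030 to 19974065 counts in genes. IRF9 was lower in the knockdown averaged over times (log2 fold change -0.79, SE 0.09, adjusted p = 7.67e-05 by edgeR), and at 30 min (-1.10, SE 0.18, adjusted p = 0.0316). It did not pass at 0 h (-0.63), 1 h (-0.81) or 6 h (-0.60), though at each time all knockdown libraries lay below all mock libraries. At 30 min, mock replicate 1 had 45.3 CPM of IRF9, against 29.9 and 28.7 CPM in mock replicates 2 and 3. The mock libraries numbered 2 stood apart at all 4 times, with scores of 29.5 to 39.8 on the first principal component, against -17.8 to 8.58 for the other 20. All 11 fibroblast markers had a mean of at least 1 CPM, and no epithelial or muscle marker did. Summed blood and immune markers came to 18.3 to 39.5 CPM, and 3 of 5 had a mean of at least 1 CPM (PTPRC, CD74 and CD3E). The endothelial gene PECAM1 and the neural gene TUBB3 also had a mean of at least 1 CPM.

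The 13 mitochondrial members took 1.45 to 2.46% of the counts in genes of a library, and the 74 nuclear members took 0.593 to 0.820%. Per kilobase of gene, the complex IV genes COX3 (4060 CPM per kb), COX1 (3827) and COX2 (3333) had the highest mean levels over 24 libraries. Together they encode the core of complex IV. CYTB, the mitochondrial subunit of complex III, followed at 2204 CPM per kb and ATP6, a proton channel subunit of complex V, at 2149 CPM per kb. The complex I genes were lower, with ND1 at 1098, ND4 at 1025, ND3 at 784, ND5 at 630, ND2 at 315 and ND4L at 302 CPM per kb. ATP8, a small complex V subunit, had 81.0 CPM per kb, and ND6, the mitochondrial protein gene on the opposite strand to the others, had 66.1. In human cells, ND6 RNA is known to lack the poly(A) tail that the other messages carry, and the libraries here were selected for poly(A). ATP8 overlaps ATP6, ATP6 overlaps COX3 and ND4L overlaps ND4 on the mitochondrial genome, so reads in the shared bases were ambiguous. Strand use in the counting is not stated, and reads from ND6 and from RNA of the opposite strand cannot then be told apart.

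Among nuclear members of complex I, the highest mean levels were those of NDUFS1 (216 CPM), which carries iron-sulphur clusters, and the accessory subunit gene NDUFA10 (177 CPM). In complex II they were SDHA (175 CPM), the flavoprotein that oxidises succinate, and SDHB (82.1 CPM), its iron-sulphur partner. In complex III they were UQCRC1 (160 CPM), a core protein, and UQCRB (158 CPM), which in mammals lies near the ubiquinone site. COX4I1 (309 CPM) and COX6C (263 CPM), both accessory subunits, led complex IV. In complex V, ATP5B (514 CPM), the catalytic beta subunit, and ATP5F1AZ (247 CPM), an alpha subunit gene on chromosome Z, led. ATP5F1AW, its counterpart on chromosome W, had 198 CPM. The likeness of these genes was not measured here, and the split of reads between them is uncertain. These are levels per gene without correction for length, so they do not rank messages against each other.

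Several subunits have tissue-specific forms in mammals, and here the forms named in the files were COX4I1 (309 CPM), COX6A1 (98.3 CPM), COX7A2 (100.2 CPM) and COX7A2L (53.2 CPM, in mammals a factor of supercomplexes). COX4I1 also carries the synonym COX4I2, so its name does not settle the form. NDUFA4, counted by its symbol in complex I, is a complex IV subunit in mammals and had 126 CPM. The 3 genes ATP5G1, ATP5G2 and ATP5G3, which in mammals encode the same mature c ring protein of complex V, had 109, 79.7 and 245 CPM. All members cleared the threshold of 1 CPM, and the lowest were ATP5SL (4.60 CPM), NDUFB7 (4.77 CPM) and ATP8 (13.4 CPM). ATP5S (15.7 CPM) and ATP5SL carry complex V symbols by an older naming, but in mammals their products are not ATP synthase subunits.

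The coefficient of variation over all 24 libraries had a median of 11.8% for nuclear members and 14.9% for mitochondrial members. It was 14.5% for all 11471 tested genes with at least 1 CPM, a set not matched to the members for level. ATP5F1AZ varied least among members (4.04%), and NDUFB7 (29.2%) and ATP8 (28.5%), both of low level, varied most.

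By edgeR with 8 group means, adjustment over 13000 genes and a threshold of 0.05, none of the 87 members was called in any of 11 comparisons. By DESeq2, 2 members were called at 6 h against 0 h averaged over genotypes, ND6 lower and NDUFS4 higher, and 0 in the other 10 comparisons. DESeq2 called 6.7% of all genes at 6 h against 0 h averaged over genotypes, so the members' share was below that of all genes. The share of all tested genes that edgeR called was 5.05% at 6 h against 0 h averaged over genotypes, 1.72% at 6 h in knockdown cells and 2.17% at 6 h in mock cells. It was 0.0462% at 1 h against 0 h and 0% at 30 min against 0 h, both averaged over genotypes. For knockdown against mock it was 0.00769% averaged over times, 0.00769% at 30 min, and 0% at 0 h, at 1 h, at 6 h and for the interaction of knockdown with 6 h. Mock libraries of the same number paired across times, and with the number as a block edgeR called 5.38% of all genes and 0 members at 6 h in mock cells. At 6 h averaged over genotypes the same block called 2 nuclear members higher, 8 mitochondrial members lower and 11.5% of all genes. In knockdown cells at 6 h it called 1 nuclear member higher, 6 mitochondrial members lower and 5.05% of all genes. Over all genes, pairing was less clear there, with 3 of 18 correlations of same-numbered knockdown libraries above 0.1. The mitochondrial sum, though, was lowest in replicate 3 in 8 of 8 groups, knockdown groups included. A fit without the block counts such a shared offset as spread. The counts of members below that passed an unadjusted p under 0.05 are descriptions beside the same share of all genes in the main fit. That share is not given for total counts or with 1 library left out. Medians and counts of signs below carry no test. The median over all genes is given only for 6 h against 0 h averaged over genotypes and in knockdown cells.

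**Figure D1:**
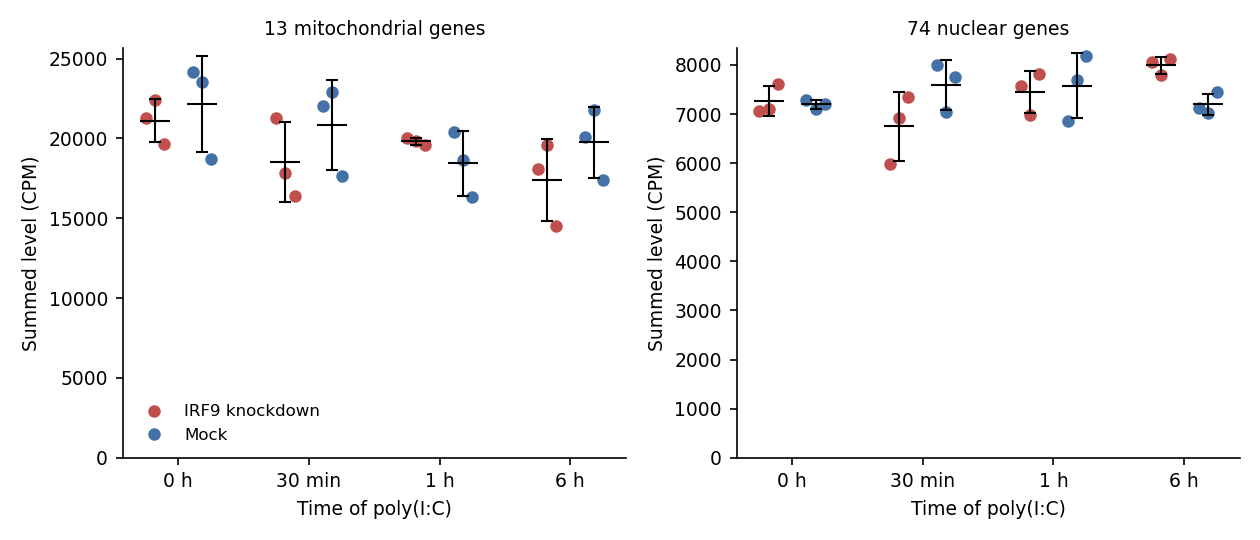
Summed level of the 13 mitochondrial (left) and 74 nuclear (right) members in each of 24 libraries, in CPM on axes from 0, by time of poly(I:C), with IRF9 knockdown left of mock. Points are libraries in the order of replicates 1 to 3, and bars are the mean and SD (n = 3). The mitochondrial sum was lowest in replicate 3 in 8 of 8 groups.

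The plot of summed levels sets the genomes side by side over the 8 groups. In knockdown cells the mitochondrial sum averaged 21115 ± 1363 CPM at 0 h, 18513 ± 2489 at 30 min, 19814 ± 221 at 1 h and 17396 ± 2591 at 6 h (SD, n = 3 each). In mock cells it averaged 22149 ± 2999 CPM at 0 h, 20863 ± 2816 at 30 min, 18457 ± 2031 at 1 h and 19758 ± 2227 at 6 h. The knockdown libraries at 6 h (18056, 19592 and 14539 CPM) all lay below those at 0 h (21282, 22387 and 19677 CPM), while the mock libraries at 6 h (20100, 21795 and 17380 CPM) overlapped those at 0 h (24185, 23557 and 18706 CPM). Within each number, the mock library at 6 h lay below that at 0 h. Replicate 3 had the lowest mitochondrial sum of its group in 8 of 8 groups and the highest nuclear sum in 6 of 8. The ratio of the mitochondrial to the nuclear sum was also lowest in replicate 3 in 8 of 8 groups. The part of replicate 3 in the results was not tested beyond the values without it and the fits with the number as a block.

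The nuclear sum averaged 7259 ± 304 CPM at 0 h, 6747 ± 700 at 30 min, 7449 ± 432 at 1 h and 7989 ± 165 at 6 h in knockdown cells. In mock cells it averaged 7202 ± 90.2 CPM at 0 h, 7591 ± 499 at 30 min, 7575 ± 661 at 1 h and 7196 ± 219 at 6 h. The knockdown group at 6 h was the highest of the 8 groups, and its libraries (8052, 7801 and 8113 CPM) lay above those of the knockdown at 0 h (7068, 7100 and 7610 CPM). The lowest library of all was knockdown 30 min replicate 1, at 5979 CPM. The ratio of the mitochondrial to the nuclear sum was 2.18 ± 0.36 in knockdown cells at 6 h and 2.92 ± 0.30 at 0 h. In mock cells it was 2.75 ± 0.39 at 6 h and 3.08 ± 0.42 at 0 h. In bulk RNA such as this, less RNA per cell and fewer cells that express a gene cannot be told apart.

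At 6 h against 0 h averaged over genotypes, mitochondrial members were on the lower side and nuclear members slightly on the higher side. The fitted log2 fold change was negative for 12 of 13 mitochondrial members, with a median of -0.23, and positive for 63 of 74 nuclear members, with a median of 0.06. The median over all tested genes was 0.00. At an unadjusted p under 0.05, 7 mitochondrial members were lower and 5 nuclear members higher, where 16.2% of all genes passed in either direction. With total counts in place of TMM scaling, 11 mitochondrial members were lower and 1 nuclear member higher, with a nuclear median of 0.02. Leaving out 1 library gave 2 to 9 mitochondrial members lower, with 2 without knockdown 6 h replicate 3, and 2 to 7 nuclear members higher, with 2 without that library or without replicate 3 of mock at 0 h or at 6 h. With the 4 mock replicate 2 libraries left out, the medians were -0.24 for mitochondrial and 0.07 for nuclear members, and without every library numbered 3 they were -0.23 and 0.07.

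ND6 had the smallest p of the mitochondrial members. In knockdown cells at 6 h it had 28.3, 38.8 and 23.8 CPM, against 40.4, 38.5 and 39.7 CPM at 0 h. In mock cells at 6 h it had 27.4, 32.8 and 29.7 CPM, against 46.9, 33.4 and 36.1 CPM at 0 h. The 6 h libraries lay below all 0 h libraries in mock cells, and knockdown replicate 2 at 6 h lay within the 0 h range. Averaged over genotypes, the log2 fold change was -0.38 (SE 0.12, adjusted p = 0.0619 by edgeR), and DESeq2 gave -0.38 (adjusted p = 0.0287). The means ran in the same order in both genotypes, from 0 h over 30 min and 1 h to 6 h, with 39.5, 36.7, 32.1 and 30.3 CPM in knockdown cells and 38.8, 36.9, 31.8 and 30.0 CPM in mock cells.

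**Figure D2:**
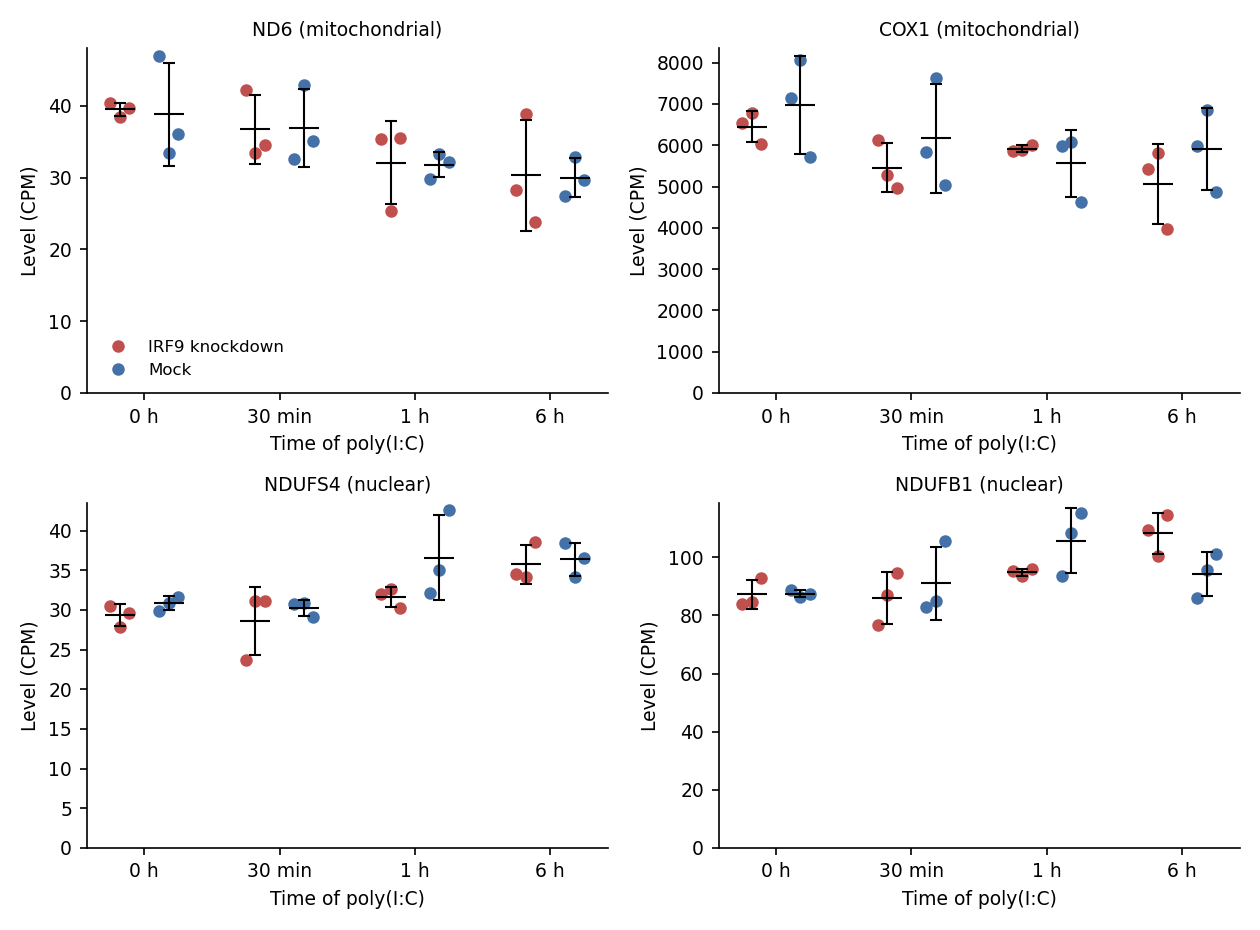
Levels of ND6 and COX1 (mitochondrial) and NDUFS4 and NDUFB1 (nuclear) in each library, in CPM on axes from 0, by time of poly(I:C), with IRF9 knockdown left of mock. Points are libraries and bars are the mean and SD (n = 3). Mean ND6 is lowest at 6 h in both genotypes, at 30.3 CPM in the knockdown and 30.0 CPM in mock.

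In complex IV, COX1, the catalytic subunit that binds oxygen, had 5414, 5814 and 3967 CPM in knockdown cells at 6 h, against 6534, 6778 and 6035 CPM at 0 h. In mock cells COX1 had 5984, 6857 and 4880 CPM at 6 h, against 7145, 8057 and 5712 CPM at 0 h. The knockdown groups did not overlap and the mock groups did, though each mock library at 6 h was below that of its number at 0 h. The log2 fold change of COX1 averaged over genotypes was -0.29 (SE 0.11, adjusted p = 0.143 by edgeR). COX2, which takes electrons from cytochrome c, had -0.26 (SE 0.10, adjusted p = 0.135), and COX3 had -0.13 (SE 0.06, adjusted p = 0.305). CYTB of complex III had -0.20 (SE 0.10, adjusted p = 0.301).

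The complex I subunits ND2 (-0.27), ND4 (-0.26), ND4L (-0.26), ND5 (-0.23) and ND1 (-0.19), which form its membrane arm, lay close together on the log2 scale. Their adjusted p-values by edgeR ran from 0.162 for ND2 to 0.412 for ND4L. ND3 stood apart from these with a log2 fold change of 0.00 (SE 0.07), and it had 295, 327 and 255 CPM in knockdown cells at 6 h against 284, 278 and 261 CPM at 0 h. In complex V, ATP6 had -0.14 (SE 0.10) and ATP8 -0.17 (SE 0.19). ATP8 had opposite signs in the genotypes, at -0.62 (SE 0.26) in knockdown cells and 0.28 (SE 0.26) in mock cells, from levels of 8.38 to 20.4 CPM over all libraries.

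**Figure D3:**
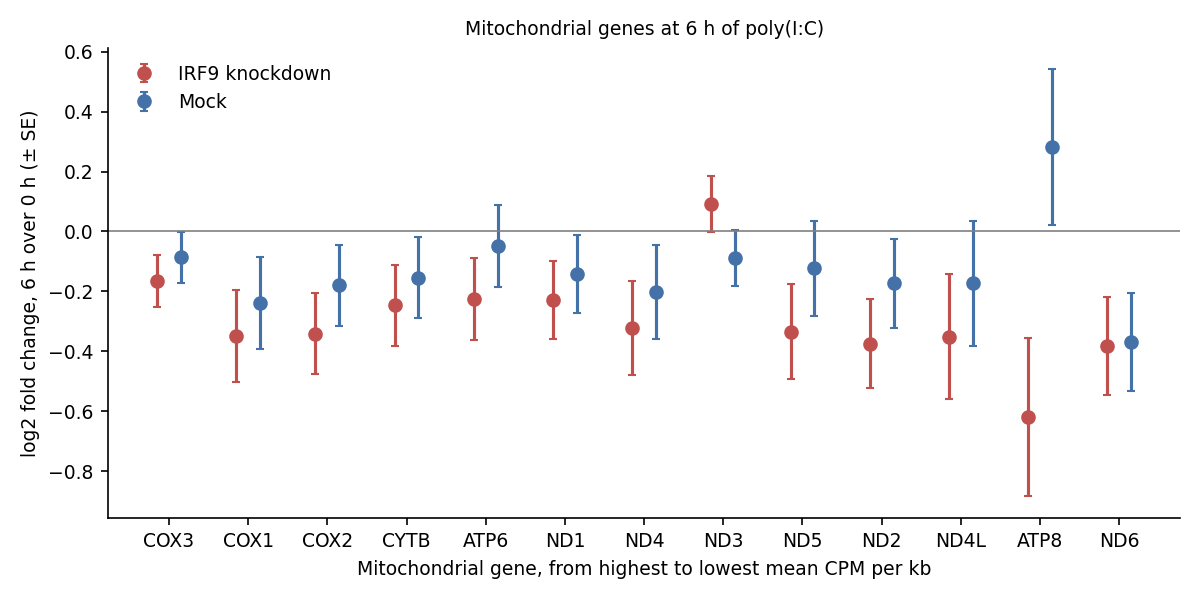
Fitted log2 fold change of the 13 mitochondrial members at 6 h over 0 h, with SE, in IRF9 knockdown (left of each pair) and mock cells, ordered from the highest to the lowest mean CPM per kb. In knockdown cells 12 of 13 lie below 0 (median -0.33) and in mock cells 12 of 13 (median -0.15). None passed the adjusted test.

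Nuclear members of complex I gave the smallest p among nuclear genes at 6 h. NDUFS4, an accessory subunit whose loss impairs complex I in humans and mice, had 34.6, 34.2 and 38.6 CPM in knockdown cells at 6 h, against 30.5, 27.9 and 29.6 CPM at 0 h. In mock cells it had 38.4, 34.2 and 36.5 CPM at 6 h, against 29.9, 30.9 and 31.7 CPM at 0 h. The 6 h libraries were above the 0 h libraries in both genotypes. The log2 fold change averaged over genotypes was 0.26 (SE 0.08, adjusted p = 0.0615 by edgeR), and DESeq2 gave 0.26 (adjusted p = 0.0337).

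NDUFB1, a small accessory subunit of the membrane arm, had 109, 100.5 and 115 CPM in knockdown cells at 6 h, against 84.1, 84.7 and 92.9 CPM at 0 h. In mock cells NDUFB1 had 86.1, 95.5 and 101 CPM at 6 h, against 88.9, 86.4 and 87.3 CPM at 0 h. The groups did not overlap in knockdown cells and overlapped in mock cells. The log2 fold change averaged over genotypes was 0.21 (SE 0.07, adjusted p = 0.109 by edgeR). By log2 fold change alone, COX7C, a small complex IV subunit, came next with 0.19 (SE 0.11, adjusted p = 0.442 by edgeR). It did not pass an unadjusted p under 0.05, while ATP5J2 (0.18), ATP5E (0.18) and NDUFA5 (0.17) did.

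The most negative log2 fold changes among nuclear members were those of NDUFA6 (-0.12, SE 0.11), ATP5S (-0.10, SE 0.10) and NDUFS1 (-0.09, SE 0.06), all with adjusted p of at least 0.474 by edgeR. NDUFS1 had 203, 209 and 199.7 CPM in knockdown cells at 6 h, against 217, 217 and 229.6 CPM at 0 h, and these groups did not overlap. By complex, the median log2 fold change of nuclear members averaged over genotypes was 0.06 in complex I, 0.02 in complex II, 0.09 in complex III, 0.10 in complex IV and 0.06 in complex V. The mitochondrial medians were -0.26 in complex I, -0.26 in complex IV and -0.15 in complex V.

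Within knockdown cells, the 6 h values differed from 0 h by a median of -0.33 (log2) over mitochondrial members and 0.14 over nuclear members, against 0.00 over all genes. In mock cells the medians were -0.15 for mitochondrial and -0.01 for nuclear members. At an unadjusted p under 0.05, 6 mitochondrial members were lower and 10 nuclear members higher in knockdown cells, where 10.5% of all genes passed. With total counts in place of TMM they were 11 and 1. Leaving out 1 library gave 1 to 10 mitochondrial members, with 1 without knockdown 0 h replicate 2 or knockdown 6 h replicate 3, and 2 to 11 nuclear members, with 2 without knockdown 6 h replicate 3 and 3 without knockdown 0 h replicate 2. In mock cells 1 was lower (ND6) and 1 higher (NDUFS4), where 9.98% passed. The mitochondrial median in knockdown cells was -0.17 without knockdown 6 h replicate 3 and -0.44 without knockdown 6 h replicate 2. In mock cells it was -0.07 without mock 0 h replicate 1 and -0.26 without mock 0 h replicate 3. With the knockdown groups of 0 h and 6 h fitted alone, edgeR called 10 members, 4 higher and 6 lower, and 6.89% of all genes.

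Libraries at 6 h and 0 h in knockdown cells did not overlap for 23 nuclear members on the higher side and 2 on the lower side, and for 4 mitochondrial members on the lower side. Over all genes, 12.6% were wholly higher and 11.1% wholly lower. In mock cells 5 nuclear members were wholly higher, 2 nuclear members and 1 mitochondrial member (ND6) wholly lower, beside 8.15% and 5.78% of all genes. The median of nuclear members was positive in each of the 5 complexes of knockdown cells. All 9 nuclear complex IV members and all 8 of complex III had a positive log2 fold change there, with medians of 0.19 and 0.14. In mock cells 4 of 9 and 5 of 8 were positive, with medians of -0.01 and 0.00.

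**Figure D4:**
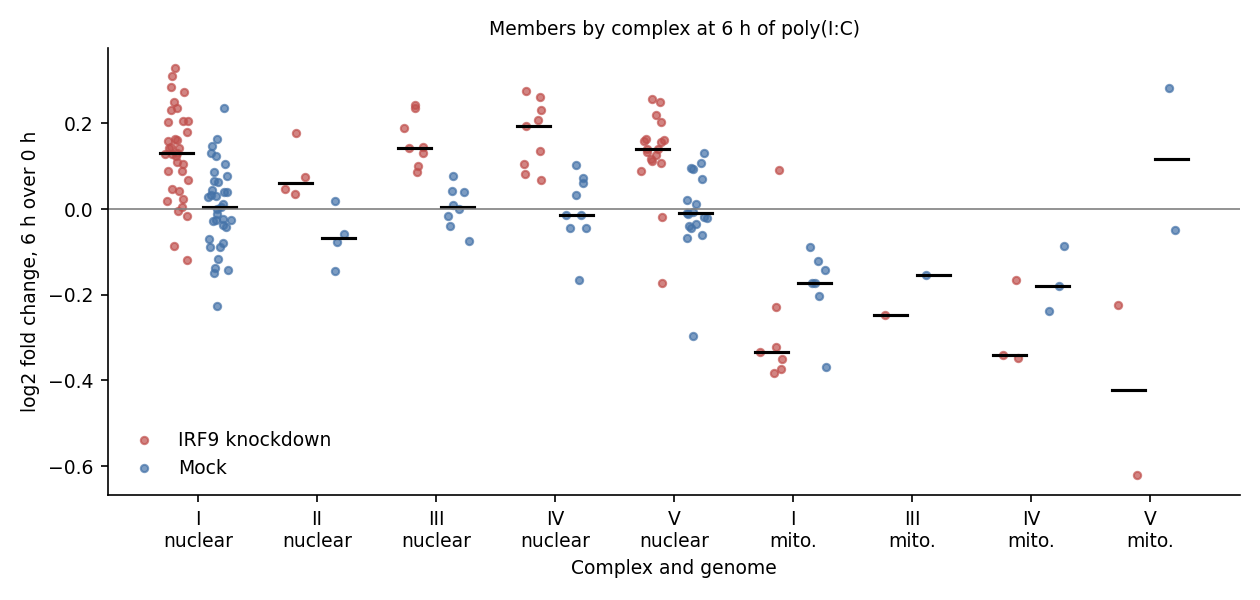
Fitted log2 fold change at 6 h over 0 h of every member, by complex and genome, in IRF9 knockdown (left of each pair) and mock cells. Points are genes and black lines are medians. The nuclear medians in knockdown cells run from 0.06 in complex II to 0.19 in complex IV, and the mitochondrial medians lie below 0 except in complex V of mock cells, which has 2 genes.

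The interaction of knockdown with 6 h asks whether the change at 6 h differed between the genotypes. Its median was 0.15 over nuclear members, with 66 of 74 positive, and -0.12 over mitochondrial members. No member passed the adjusted test by edgeR. At an unadjusted p under 0.05 ATP8 alone passed (-0.90, SE 0.37), where 1.57% of all genes did. Leaving out each library in turn moved the nuclear median between 0.11 and 0.20. The mitochondrial median was 0.01 without knockdown 6 h replicate 3 and -0.26 without knockdown 6 h replicate 2. These medians and the count of signs carry no test, and the same values over all genes are not given here.

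Averaged over genotypes, the mitochondrial medians lay nearer to 0 at the earlier times than at 6 h, but the genotypes ran in different orders. The library median of mitochondrial members (log2 CPM) averaged 10.27, 10.32, 10.11 and 10.14 in mock cells at 0 h, 30 min, 1 h and 6 h. In knockdown cells it averaged 10.18, 10.15, 10.17 and 9.84, so the lowest mean was at 1 h in mock and at 6 h in the knockdown. At 30 min against 0 h averaged over genotypes, the median log2 fold change was -0.10 over mitochondrial and -0.01 over nuclear members, and COX3 alone passed an unadjusted p under 0.05 (-0.17, SE 0.06), where 1.3% of all genes did. At 1 h the medians were -0.16 and 0.06. COX3 (-0.21), COX2 (-0.25), ND6 (-0.29) and ATP8 (-0.44) were lower and NDUFB1 (0.20), NDUFS4 (0.18) and ATP5O (0.14), a stalk subunit of complex V, higher at an unadjusted p under 0.05. Leaving out 1 library gave 1 to 7 mitochondrial members lower at 1 h, with 1 without mock 0 h replicate 1, and 1 to 8 nuclear members higher, with 1 without knockdown 1 h replicate 1. At 1 h, 3.4% of all genes passed at that level, and the adjusted p of these members was at least 0.797 by edgeR.

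For knockdown over mock as a mean of the 4 times, the median log2 fold change was -0.01 over nuclear and -0.09 over mitochondrial members, with 12 of 13 mitochondrial members negative. UQCRC2, a core protein of complex III (-0.14, SE 0.05), and NDUFB7, an accessory subunit of complex I (-0.44, SE 0.15), were among the members lower at an unadjusted p under 0.05. Each had an adjusted p of 0.462 by edgeR, and 10.8% of all genes passed the unadjusted test. ATP5I, a small complex V subunit, had -0.14 (SE 0.07). The most positive values were those of NDUFS6 (0.12, SE 0.07), UQCRB (0.10, SE 0.07) and NDUFB3 (0.09, SE 0.08), accessory subunits of complexes I and III. For each of these genes, mock replicate 2 was the lowest mock library at every time. NDUFB3 had 79.8, 68.2, 78.9 and 70.8 CPM in those libraries, against 89.8 to 116 CPM in the other mock libraries. The part of mock replicate 2 in these values was not tested.

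**Figure D5:**
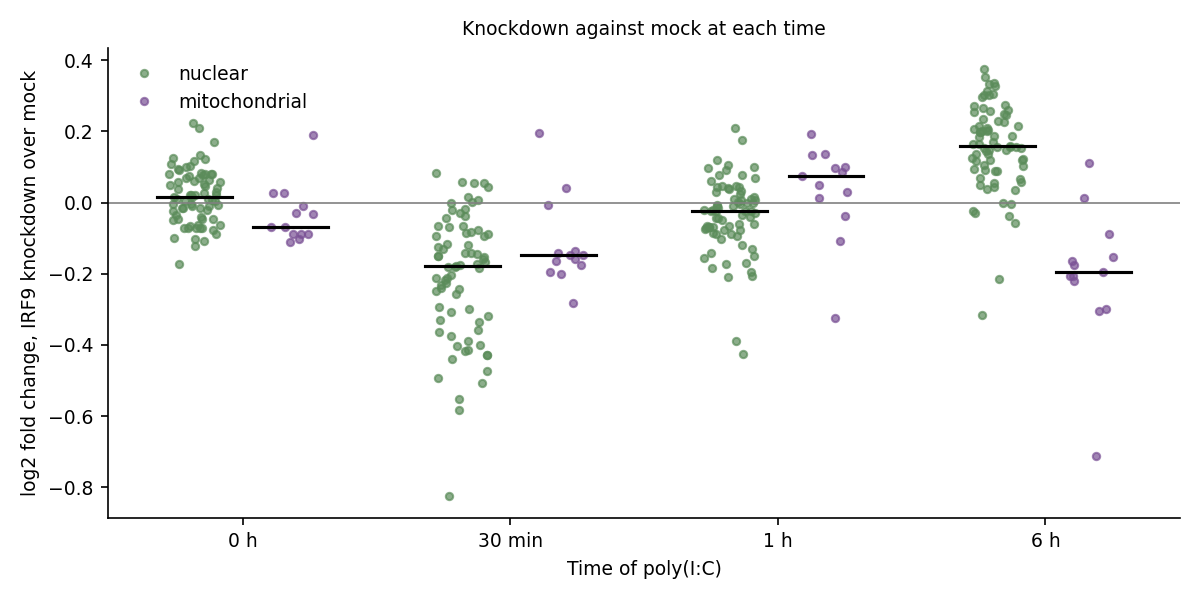
Fitted log2 fold change of every member, IRF9 knockdown over mock, at each time of poly(I:C), with nuclear members left of mitochondrial members at each time. Points are genes and black lines are medians. The nuclear median is -0.18 at 30 min and 0.16 at 6 h.

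At 0 h, knockdown over mock had a median of 0.02 over nuclear and -0.07 over mitochondrial members, and no member passed an unadjusted p under 0.05, where 1.51% of all genes did. At 1 h the medians were -0.02 and 0.07, and ATP5I alone passed (-0.39, SE 0.14), where 2.32% did. The sign of these 4 medians turned when 1 library was left out. At 0 h the nuclear median was -0.02 without knockdown 0 h replicate 3, and the mitochondrial median was 0.05 without mock 0 h replicate 1. At 1 h the nuclear median was 0.05 and the mitochondrial median -0.01 without mock 1 h replicate 3, and the nuclear median was 0.03 without knockdown 1 h replicate 2. The 2 other times departed from these in opposite directions for nuclear members, with a median of -0.18 at 30 min and 0.16 at 6 h, shown in the plot of knockdown against mock at each time.

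At 30 min, 22 nuclear members were lower in the knockdown at an unadjusted p under 0.05, where 13.3% of all genes passed, and none was called after adjustment. Leaving out 1 library gave 5 to 33, with 5 without mock 30 min replicate 1 and 7 without knockdown 30 min replicate 1. They included NDUFV1, the flavin-binding subunit that takes electrons from NADH (-0.49, SE 0.13, adjusted p = 0.169 by edgeR), ATP5D (-0.43, SE 0.11) and ATP5B (-0.39, SE 0.12) of complex V. ATP5B had 445, 499 and 450.0 CPM in knockdown cells, against 761, 584 and 482 CPM in mock cells. Knockdown replicate 2 overlapped mock replicate 3, and mock replicate 1 was the highest of the 24 libraries. That library also had the highest sum of neural markers (539 CPM, against 218 to 340 CPM in the others) and the highest share of reads aligned to several places (4.25%), and their part in the result was not tested. Libraries did not overlap for 9 nuclear members, all lower in the knockdown, beside 6.44% of all genes wholly lower and 5.42% wholly higher. The nuclear median was -0.05 without knockdown 30 min replicate 1, the library with the lowest nuclear sum, and -0.26 without knockdown 30 min replicate 3. Of the 24 libraries, knockdown 30 min replicate 1 also had the fewest genes with a count (14883). Its ratio of the mitochondrial to the nuclear sum was the highest (3.56), and the part of these traits was not tested. Without mock 30 min replicate 3, edgeR called 5 members, all lower, and 5.58% of all genes. Without the low-count filter it called 3 members and 0.958% of all genes.

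This comparison shares its knockdown 6 h libraries with that of 6 h against 0 h. At 6 h, 66 of 74 nuclear members were higher in knockdown than in mock cells and 11 of 13 mitochondrial members were lower, with medians of 0.16 and -0.19 on the log2 scale. At an unadjusted p under 0.05, 9 nuclear members were higher and 1 mitochondrial member (ATP8) lower, where 6.15% of all genes passed. With total counts in place of TMM they were 3 and 3. Leaving out 1 library gave 2 to 15 nuclear members, with 2 without mock 6 h replicate 2, 3 without knockdown 6 h replicate 1 or 3, and 15 without mock 6 h replicate 3. For mitochondrial members it gave 1 to 5, with 5 without knockdown 6 h replicate 2. The 9 included UQCRHL, the hinge protein of complex III (0.33, SE 0.12), COX7A2 (0.30, SE 0.13) and COX6A1 (0.30, SE 0.13) of complex IV, and SDHC (0.33, SE 0.15) and SDHD (0.26, SE 0.12), the membrane anchors of complex II. Each had an adjusted p of 0.777 by edgeR. COX7A2 had 103, 107 and 139.9 CPM in knockdown cells, against 89.7, 91.7 and 104 CPM in mock cells, and the groups overlapped. Libraries did not overlap for 23 nuclear members on the higher side and 1 on the lower, and for 1 mitochondrial member on the lower, beside 6.92% and 6.35% of all genes. The nuclear median stayed between 0.12 and 0.19 with each library left out, and the mitochondrial median was -0.08 without knockdown 6 h replicate 3 and -0.31 without knockdown 6 h replicate 2.

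Genes that build or feed the chain were set beside the members. At 6 h against 0 h averaged over genotypes, TTC19 was the one assembly factor of 41 called without a block (0.77, SE 0.11, adjusted p = 4.78e-05 by edgeR). With the replicate number as a block, BCS1L was called higher too (0.32, adjusted p = 0.0358 by edgeR). In mammals TTC19 clears fragments of the Rieske protein from complex III. MYC, a transcription factor that raises mitochondrial genes in mammals, rose among 13 nuclear regulators (0.70, SE 0.11, adjusted p = 1.95e-04). COQ7, a hydroxylase of ubiquinone synthesis, rose among 13 electron carrier genes (0.30, SE 0.08, adjusted p = 0.0211). Of 19 glycolysis genes, PFKFB3 (0.45, SE 0.13), which makes an activator of phosphofructokinase, and HK2 (0.28, SE 0.07), a hexokinase, rose. TTC19 and MYC also rose within each genotype, with TTC19 at 0.89 in knockdown cells and 0.65 in mock cells and MYC at 0.68 and 0.73. With the replicate number as a block, HK2 (0.35, adjusted p = 0.00961 by edgeR), PFKFB3 (0.48, adjusted p = 0.00408), the regulator CREB1 (0.33, adjusted p = 0.0197) and POLRMT, the mitochondrial RNA polymerase (0.26, adjusted p = 0.0489), also rose in mock cells at 6 h, and the mitochondrial ribosome gene MRPS24 fell (-0.66, adjusted p = 0.0343).

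None of 29 factors of mitochondrial DNA and RNA, 16 genes of the citric acid cycle and pyruvate dehydrogenase, or 73 genes of the mitochondrial ribosome was called at 6 h averaged over genotypes by edgeR. At an unadjusted p under 0.05, 4, 1 and 4 of them passed, in each list a smaller share than the 16.2% of all genes. With the replicate number as a block, edgeR called POLRMT, MTPAP and MRPS18C higher in this comparison, beside 11.5% of all genes. In knockdown cells at 6 h the ribosome gene MRPS18C rose (0.54, SE 0.13, adjusted p = 0.0324). The mitochondrial ribosome genes had medians close to those of the nuclear members, at 0.14 for 6 h against 0 h in knockdown cells, -0.01 in mock cells and 0.16 for knockdown against mock at 6 h. The glycolysis medians for the same comparisons were 0.06, -0.05 and 0.03. Summed blood and immune markers averaged 35.9 CPM in knockdown cells at 6 h and 22.4 CPM at 0 h, and 37.1 CPM in mock cells at 6 h and 21.5 CPM at 0 h. Of 4 such markers tested, CD3E alone was called at 6 h averaged over genotypes, and it rose (1.08, SE 0.12, adjusted p = 7.21e-07 by edgeR). PECAM1 rose too (0.96, SE 0.26, adjusted p = 0.0249), with summed endothelial markers of 1.72 to 5.87 CPM over the libraries. With the replicate number as a block, the fibroblast markers COL1A2 (-0.59) and COL3A1 (-0.44) were also called lower and FN1 (0.17) and POSTN (0.61) higher in this comparison. The part of these markers in the members' values was not tested.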

How the data were processed

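The authors deposited raw gene counts as whole numbers, in a separate table for each library. Per the submitters' processing notes, the tools named are HTSeq 2.0.5, STAR 2.7.11b, FastQC 0.12.1, edgeR 3.40.2 and Trim Galore 0.6.10, and the build is GRCg7b. The 5 summary lines of the counter stayed out of library sizes and tests. Per library, 14.6 to 18.8% of reads fell outside genes and 3.43 to 4.25% aligned to several places. Mitochondrial identifiers were named through locus tags of the supplied gene table. No row matched CYC1, which was not analysed here.

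From the counts, genes were filtered with filterByExpr and scaled by TMM. The quasi-likelihood test of edgeR 4.0.16 (R 4.3.3) used 8 group means and all 24 libraries at once, two-sided, with Benjamini-Hochberg adjustment over 13000 genes. Genes at an adjusted p under 0.05 were called. Levels are TMM-scaled CPM, and a count of 3 came to 0.150 to 0.259 CPM, for counting error only. DESeq2 1.42.0 was run as an alternative. The fit was tried on simulated libraries with no shared replicate offset. Their changes were larger than those of the members at 6 h averaged over genotypes, so the trial does not show how such small changes are recovered.

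The members, lists and tests were chosen with earlier results of these data known. The text names all mitochondrial members, the 2 highest nuclear members per complex, the 3 largest rises and falls, members with paralogues and those nearest the CPM threshold. Other members named at an unadjusted p under 0.05 were chosen after their values were seen. Promoter motifs were planned and not run. A further result is not reported here. In mock cells, same-numbered libraries at different times deviated together from their group means (correlations of 0.110 to 0.441, all above 0.1), which comes from the data and not the labels. A fit with the number as a block called 0 members at 6 h in mock cells, as did the fit without it.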

Additional observations from a re-analysis of the deposited data

How the results depend on the processing

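Every alternative kept 0 called members for knockdown against mock averaged over times, at 0 h, at 1 h and at 6 h. The same held for 30 min and 1 h against 0 h, for 6 h in mock cells and for the interaction. All medians named for the averaged comparisons moved by less than the replicate spread. This spread (SD of library medians, log2) was 0.117 for nuclear and 0.221 for mitochondrial members. It was wider than most of these medians, so the check does not show that they are stable. At 6 h against 0 h averaged over genotypes, the count of 0 became 2 with total counts in place of TMM, 5 without the low-count filter, 2 with DESeq2, 1 with only the groups compared and 1 without mock replicate 2 at all times. Of these alternatives, the share of all genes called is given here for DESeq2 alone (6.7%), so the other counts cannot be set against it. Leaving out 1 library gave 0 to 1 at 6 h averaged over genotypes. For knockdown against mock at 30 min it gave 0 to 5, and no low-count filter gave 3 there. At 6 h in knockdown cells, only the groups compared gave 10. The cause was not tested. The nuclear median for knockdown against mock averaged over times, near 0, was positive in 4 of 31 alternatives (up to 0.01). With 3 libraries a group, differences of the size seen here lie near the spread.

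The replicate block, with the number as a term within genotypes, called 10 members at 6 h averaged over genotypes (2 nuclear higher, 8 mitochondrial lower), where it called 11.5% of all genes, and 7 at 6 h in knockdown cells (1 higher, 6 lower), where it called 5.05%. It changed no other count of members called. At 6 h averaged over genotypes it also called, among the listed genes outside the members and the cell type markers, BCS1L, POLRMT, MTPAP, MRPS18C, CREB1, PPARD, GAPDH and ENO1 higher and J6367_mgr01 lower, and at 6 h in knockdown cells MRPS31, ENO1 and PFKFB3 higher. Without 1 library it called 6 to 11 for the averaged comparison, with 6 without knockdown 0 h replicate 2 or knockdown 6 h replicate 3. The correlation of same-numbered libraries passed 0.1 in 3 of 18 pairs in knockdown cells and in 4 of 12 between genotypes, short of every pair. A library correlated best with its own number in 22 of 36 checks between knockdown times, 34 of 36 between mock times and 11 of 24 between genotypes. These blocked values are a hint from the data, not the design.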

Other observations

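The mitochondrial ribosomal RNAs, which form the core of the mitochondrial ribosome, had 2 rows. The row J6367_mgr01 averaged 4483 ± 713 CPM in knockdown cells at 6 h and 5225 ± 403 CPM at 0 h, and 5974 ± 1243 CPM in mock cells at 6 h and 6816 ± 379 CPM at 0 h (SD, n = 3 each). At 0 h the knockdown libraries of this row (4873 to 5665 CPM) lay below those of mock (6379 to 7052 CPM). The row J6367_mgr02 averaged 2349 ± 174 CPM in knockdown cells at 6 h and 2260 ± 74.7 CPM at 0 h, and 2721 ± 461 CPM in mock cells at 6 h and 2690 ± 43.9 CPM at 0 h, so its 6 h means were not below its 0 h means. Both rows had lower levels in the knockdown than in mock at 0 h at an unadjusted p under 0.05, where 1.51% of all genes passed. Their median log2 fold change was -0.32, and neither was called by edgeR after adjustment. At 30 min both rows averaged higher in the knockdown, at 5756 ± 452 and 2708 ± 311 CPM, against 4686 ± 1000 and 2419 ± 412 CPM in mock. At 1 h they averaged 5391 and 2321 CPM in the knockdown and 5698 and 2511 CPM in mock. Of 22 mitochondrial transfer RNA rows, 5 passed the filter. The sum over all 22 rows ranged from 39.5 to 77.2 CPM over the libraries.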
